A study of Homo sapiens with 18 samples.

Results

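Cytoplasmic dynein 1, its activator complex dynactin and the adaptors that join the motor to its cargo were followed through early human organoid development in cells with 2 copies or 1 working copy of LIS1. The genes were taken by symbol from a fixed list of 32: 11 dynein subunits, 12 dynactin subunits and 9 activating adaptors. All 32 were found among the 26485 gene rows of the deposited count files, and 31 passed the filter on low counts beside 12215 genes in all. The one that did not, DYNC1I1, encodes the neuronal dynein intermediate chain and had 0 to 10 counts in each library.

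The RNA was that of WIBR3, a line of human embryonic stem cells (hESC), with both copies of LIS1 (LIS1+/+) or 1 copy lost (LIS1+/-). It was read by bulk MARS-seq, a method that counts transcripts by short tags from their 3′ ends. The 6 groups, each of 3 libraries, were undifferentiated hESC, Day 5 organoids and Day 12 organoids of both genotypes; none carried a treatment, and the title of the series calls the organoids cortical. The sources used here do not give how the LIS1+/- cells were made, whether they are 1 clone, how many organoids went into a library or whether libraries of a group came from separate cultures. The p-values therefore measure the spread between these libraries, which may be technical.

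Dynein is a large complex that walks toward the minus ends of microtubules and moves nuclei, centrosomes, vesicles and mitotic spindles. The heavy chain holds the motor, the intermediate and light intermediate chains tie it to dynactin and to adaptors, and pairs of small light chains sit on the intermediate chain. Dynactin is built on a short filament of actin-related protein, capped at one end by the actin capping protein CapZ. LIS1, whose gene symbol is PAFAH1B1, helps dynein assemble with dynactin and an adaptor into an active motor. In the developing cortex this machinery positions the nuclei of radial glia and pulls the nuclei of migrating neurons.

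Many of the subunits come as pairs of related genes whose products take the same place in the complex. In several pairs the genes differed in their course in the data below, and the DNA just before the start sites is shown first for 2 of them, 1 of dynein and 1 of dynactin. The windows hold 250 bases before the RefSeq start, 5′ to 3′ on the strand of the gene, in GRCh38.p14: chr3:32570859-32571108 on the minus strand for DYNC1LI1 and chr16:66751610-66751859 on the minus strand for DYNC1LI2, the light intermediate chains. Capitals mark the GC box GGGCGG or its reverse complement CCGCCC.
DYNC1LI1: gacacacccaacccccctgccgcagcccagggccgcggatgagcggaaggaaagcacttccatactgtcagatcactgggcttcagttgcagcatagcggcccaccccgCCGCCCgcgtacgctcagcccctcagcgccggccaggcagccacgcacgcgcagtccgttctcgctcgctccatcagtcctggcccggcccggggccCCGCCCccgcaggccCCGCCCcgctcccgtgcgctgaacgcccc
DYNC1LI2: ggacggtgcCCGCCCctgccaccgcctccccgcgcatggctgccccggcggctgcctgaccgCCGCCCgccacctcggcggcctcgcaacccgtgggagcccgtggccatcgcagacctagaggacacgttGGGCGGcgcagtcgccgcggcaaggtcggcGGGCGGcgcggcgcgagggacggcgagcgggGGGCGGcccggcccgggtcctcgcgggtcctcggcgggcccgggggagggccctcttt
There were 3 matches before DYNC1LI1 and 5 before DYNC1LI2. For the actin-related proteins of the dynactin filament the windows are chr10:102502713-102502962 on the minus strand for ACTR1A and chr2:97664045-97664294 on the minus strand for ACTR1B, with the CCAAT box CCAAT or its reverse complement ATTGG in capitals.
ACTR1A: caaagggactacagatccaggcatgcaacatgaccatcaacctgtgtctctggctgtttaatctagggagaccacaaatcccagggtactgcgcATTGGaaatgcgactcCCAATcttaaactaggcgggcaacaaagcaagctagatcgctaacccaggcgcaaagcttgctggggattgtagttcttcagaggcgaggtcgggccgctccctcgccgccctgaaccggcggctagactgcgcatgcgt
ACTR1B: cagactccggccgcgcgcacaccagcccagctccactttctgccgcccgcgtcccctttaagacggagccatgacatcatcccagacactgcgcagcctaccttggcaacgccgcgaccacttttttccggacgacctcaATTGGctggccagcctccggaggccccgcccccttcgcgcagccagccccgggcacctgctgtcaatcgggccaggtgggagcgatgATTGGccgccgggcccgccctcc
Each of these windows held 2 CCAAT boxes. The table used had 40 windows for 28 of the 32 genes, beside 35116 windows in all. The GC box lay in 29 of the 40 windows, against 42.6% of all windows. The CCAAT box lay in 14 of the 40, against 32%. A core of the RFX motif, GTTGCC or GGCAAC, which is known from genes of cilia, lay in 7 of the 40, against 10.2%. These matches describe the letters only.

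Gene counts per library ran from 1425098 to 4501489, and the 32 genes together took 0.289% to 0.353% of them. Levels are given as CPM, the counts of a gene per 1000000 counts of the library, with library sizes scaled by TMM. The share of reads that matched more than 1 place, which are not counted for any gene, averaged 52.9% in LIS1+/+ hESC and 42.8% in LIS1+/- hESC against 27.3% to 32.5% in the organoid groups. It moved with the step from hESC to Day 5, and its part in the results of that step was not tested. GC-rich genes were low in 3 libraries, 1 from each stage: replicate 3 of the LIS1+/+ hESC, replicate 2 of LIS1+/- at Day 5 and replicate 2 of LIS1+/+ at Day 12. These had slopes of -0.0246 to -0.015 log2 per percent GC against -0.000749 to 0.0117 in the other 15. The summed level of 6 pluripotency markers was 2876 to 3969 CPM in hESC, 994 to 1513 CPM at Day 5 and 530.5 to 709 CPM at Day 12. SOX2, one of the 6, went the other way in the first step, from a LIS1+/+ mean of 507 CPM in hESC to 683 CPM at Day 5. It held most of the Day 12 sums, at 314 to 562 CPM. At Day 12 POU5F1 had 0.487 to 0.646 CPM and NANOG had no count. The 7 neural progenitor markers summed to 550.0 to 845 CPM in hESC and 1390 to 3173 CPM in organoids, in the direction of the labels. At Day 12 the 6 mesenchyme markers summed to 948, 147 and 387 CPM in the LIS1+/+ libraries against 89.6 to 121 CPM in LIS1+/-, and the 5 endoderm and liver markers to 456, 20.8 and 72.5 CPM against 7.98 to 20.4 CPM. The 5 neural crest markers summed to 267, 28.3 and 101 CPM against 11.1 to 11.4 CPM. With the libraries of a group pooled, no gene of these 3 lists was at 0 in Day 12 LIS1+/+, while FOXA2, SOX17 and FOXD3 were at 0 in LIS1+/-. These 3 genes pooled to only 11, 13 and 69 counts in Day 12 LIS1+/+. In its replicate 2 they had no count, nor had TFAP2B. In hESC the pluripotency markers summed to 3600 to 3969 CPM in LIS1+/+ and 2876 to 3113 CPM in LIS1+/-. At Day 5 they summed to 1422 to 1513 CPM against 994 to 1308 CPM, the mesenchyme markers to 52.6 to 66.5 CPM against 23.4 to 28.4 CPM and the neural crest markers to 21.9 to 37.9 CPM against 6.44 to 18.7 CPM. These sums moved with genotype at each stage, and their part in the genotype results was not tested. In bulk RNA, fewer cells of a type and less RNA per cell cannot be told apart.

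The first question was whether loss of 1 copy of LIS1 came with a change in the transcripts of the motor that LIS1 acts on. PAFAH1B1 itself had 84.8, 72.1 and 111 CPM in LIS1+/+ hESC and 61.2, 51.4 and 55.9 CPM in LIS1+/- hESC. At Day 5 it had 129.8, 134 and 152 CPM in LIS1+/+ and 89.0, 105 and 84.3 CPM in LIS1+/-. At Day 12 it had 147, 218 and 139.7 CPM in LIS1+/+ and 104, 114 and 76.1 CPM in LIS1+/-. At each stage the LIS1+/- libraries all lay lower than those of LIS1+/+. The mean genotype effect over the 3 stages was -0.68 ± 0.11 on the log2 scale (adjusted p = 0.000812, quasi-likelihood F-test of edgeR, Benjamini-Hochberg over 12215 genes). At single stages it was -0.67 ± 0.21 in hESC, -0.58 ± 0.19 at Day 5 and -0.78 ± 0.20 at Day 12 (edgeR adjusted p = 0.173, 0.148 and 0.0372), so PAFAH1B1 passed the single-stage test at Day 12 and missed it at the other stages. The Day 12 call was lost in 7 of 13 alternative settings, among them those without Day 12 LIS1+/+ replicates 1 or 2, or Day 12 LIS1+/- replicates 1, 2 or 3, at -0.91 to -0.55, and those without the 3 libraries in which GC-rich genes were low and of only the libraries compared. At Day 5 PAFAH1B1 passed in 2 settings, without those 3 libraries (-0.68) and with the GC trend removed (-0.63). Here and below, library values are in the order of replicates 1, 2 and 3, a log2 fold change is followed by its SE after the sign ±, and each group has 3 libraries.

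None of the 31 dynein, dynactin and adaptor genes tested was called for genotype in hESC, at Day 5, at Day 12 or in the mean over the stages, at an adjusted p under 0.05 in edgeR. DESeq2 called none either. Among all genes tested, edgeR called 0.491% in hESC, 1.95% at Day 5, 1.4% at Day 12 and 2.06% in the mean effect. At an unadjusted p under 0.05 there were 1, 2, 0 and 0 of the 31 genes in these 4 comparisons, where the shares over all genes were 11.2%, 11.5%, 12.7% and 13.9%. The median log2 fold change of the 31 genes was 0.06 in hESC, 0.11 at Day 5, -0.03 at Day 12 and 0.07 in the mean, beside 0.03, 0.01, -0.01 and 0.01 over all genes tested.

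**Figure D1:**
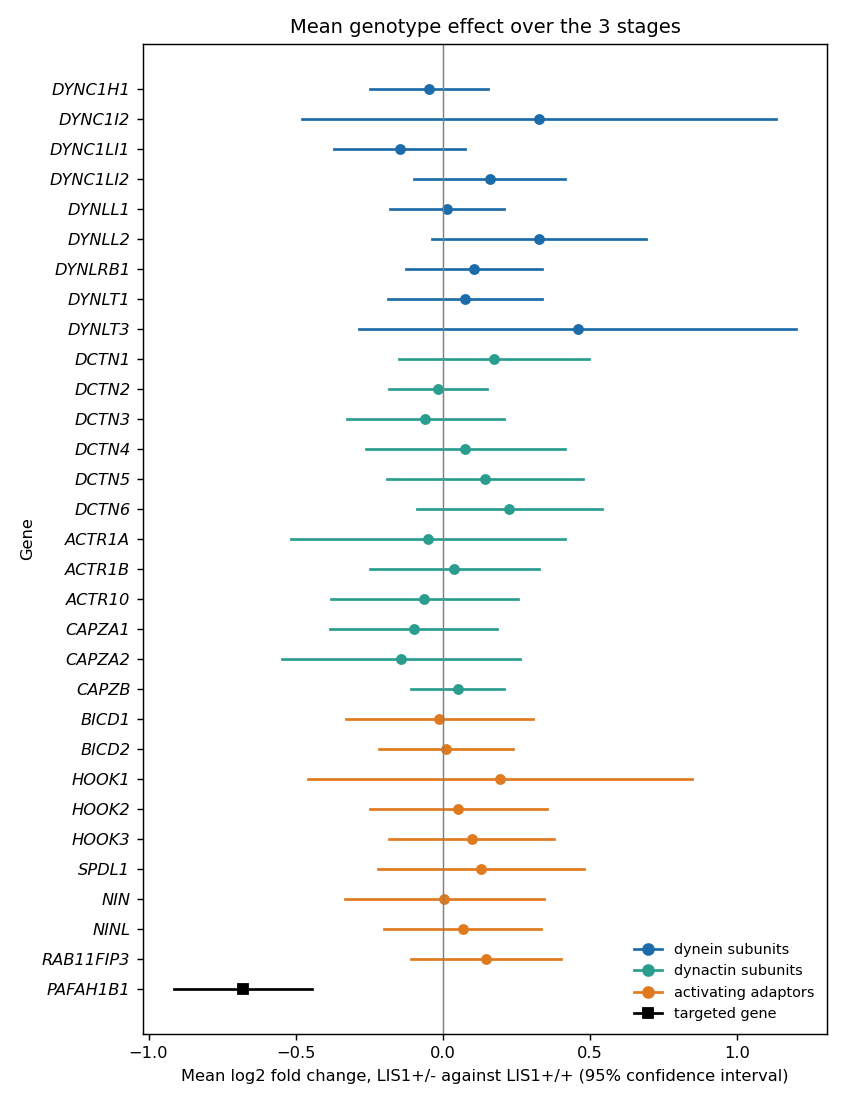
Mean genotype effect over the 3 stages for the tested genes of the motor, dynactin and adaptors and for PAFAH1B1 (x axis, log2 fold change of LIS1+/- against LIS1+/+, points with 95% confidence intervals; y axis, genes). DYNLRB2, which had few counts, is left out. Its interval was not within 1.00 log2 of zero and not wholly above the value of PAFAH1B1. PAFAH1B1 lies at -0.68, and every interval of the other genes drawn reaches across 0 and stays above that value.

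The data bound the mean effects more closely than those at single stages. The 95% confidence interval of the mean effect lay within 0.50 log2 of zero in either direction for 23 of the 31 genes and within 1.00 log2 for 28. The 3 wider ones were DYNC1I2, DYNLT3 and DYNLRB2, all with few counts. For 30 of the 31 the interval lay wholly above -0.68, the fitted value of PAFAH1B1, and DYNLRB2 was the exception. At single stages the intervals were wider: within 1.00 log2 for 23 of 30 genes in hESC, where DYNLRB2 had no count, for 23 of 31 at Day 5 and for 23 of 31 at Day 12. They lay within 0.50 log2 for only 5 of 30, 5 of 31 and 8 of 31 genes in the same order. Wholly above the value of PAFAH1B1 at the same stage lay 23 of 30, 23 of 31 and 22 of 31. A mean over the stages can also hide effects of opposite sign.

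Among the dynein subunits the genotype comparisons with the smallest p concerned the light intermediate chains, which bind the adaptors. DYNC1LI1 in hESC had 169.5, 168 and 225 CPM in LIS1+/+ and 152, 121 and 141 CPM in LIS1+/-. The groups did not overlap, but the log2 fold change of -0.45 ± 0.19 missed the threshold (edgeR adjusted p = 0.357). Its highest LIS1+/+ value is that of hESC LIS1+/+ replicate 3, one of the libraries in which GC-rich genes were low. DYNC1LI2 at Day 5 had 34.2, 35.1 and 38.3 CPM in LIS1+/+ and 53.5, 66.5 and 48.0 CPM in LIS1+/-. These groups did not overlap either, and the log2 fold change was 0.64 ± 0.21 (edgeR adjusted p = 0.142). The highest of the LIS1+/- values is Day 5 LIS1+/- replicate 2, one of the libraries in which GC-rich genes were low. Without the 3 such libraries the log2 fold change of DYNC1LI2 was 0.49 ± 0.22, with an edgeR adjusted p of 0.318. At Day 12 DYNC1LI2 had 64.0, 58.5 and 49.6 CPM in LIS1+/+ and 48.2, 46.1 and 43.9 CPM in LIS1+/-, with every LIS1+/- library now lower, at a log2 fold change of -0.32 ± 0.21 (edgeR adjusted p = 0.558). The change of its genotype effect from Day 5 to Day 12 was -0.95 ± 0.30 on the log2 scale, which also missed the threshold (edgeR adjusted p = 0.155).

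None of the light chains passed. DYNLT1, a Tctex-type light chain, had 59.6, 71.7 and 67.4 CPM in LIS1+/+ and 91.2, 106 and 72.3 CPM in LIS1+/- at Day 5. All LIS1+/- libraries were higher, by 0.44 ± 0.21 log2 (edgeR adjusted p = 0.44). DYNLL1, the abundant LC8 light chain, had 271, 229.6 and 273 CPM in LIS1+/+ and 361, 258 and 334 CPM in LIS1+/- at Day 12. Its groups overlapped, with a log2 fold change of 0.30 ± 0.16 (edgeR adjusted p = 0.453). DYNLL2, the other LC8 gene, had 18.6, 9.35 and 19.2 CPM in LIS1+/+ hESC and 26.5, 18 and 19.8 CPM in LIS1+/- hESC, and its organoid values are given with the developmental steps. It had the smallest p of the mean effect among the 31 genes, at 0.33 ± 0.18 log2 (edgeR adjusted p = 0.424). The mean effect of the heavy chain DYNC1H1 was -0.05 log2 with a 95% confidence interval of -0.25 to 0.15.

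None of the dynactin genes passed either. DCTN5, a subunit of the pointed-end complex, had 13.3, 8.02 and 10.6 CPM in LIS1+/+ hESC and 17.7, 15.8 and 15.5 CPM in LIS1+/- hESC. The LIS1+/- values were all higher, by 0.59 ± 0.31 log2 (edgeR adjusted p = 0.482). DCTN4, another pointed-end subunit, had 28.5, 25.9 and 25.0 CPM in LIS1+/+ and 23.6, 60.7 and 38.9 CPM in LIS1+/- at Day 5. Its groups overlapped, and the log2 fold change of 0.63 ± 0.27 (edgeR adjusted p = 0.34) dropped to 0.25 ± 0.24 without the 3 libraries in which GC-rich genes were low. DCTN6, also at the pointed end, had 25.7, 22.0 and 23.0 CPM in LIS1+/+ hESC and 25.9, 29.3 and 19.5 CPM in LIS1+/- hESC. At Day 5 it had 17.1, 23.4 and 21.9 CPM in LIS1+/+ and 29.9, 31.1 and 17 CPM in LIS1+/-, and at Day 12 15.5, 20.8 and 20.9 CPM and 27.2, 25.3 and 19.1 CPM. Its groups overlapped at each stage, with a mean effect of 0.23 ± 0.15 log2 (edgeR adjusted p = 0.55). DCTN1, the p150 subunit that binds microtubules, had 437, 215 and 582 CPM in LIS1+/+ and 569, 539 and 619.8 CPM in LIS1+/- at Day 12. Here too the groups overlapped, and the log2 fold change was 0.48 ± 0.27 (edgeR adjusted p = 0.467).

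Of the adaptors, BICD1, which links dynein to RAB6 vesicles, had 11.4, 12.7 and 11.8 CPM in LIS1+/+ hESC and 17.1, 16.7 and 17.3 CPM in LIS1+/- hESC. The groups were tight and did not overlap, and the log2 fold change of 0.51 ± 0.29 missed the threshold (edgeR adjusted p = 0.529). At Day 5 the order was the other way, with 25.1, 25.5 and 23.7 CPM in LIS1+/+ and 16.1, 17.6 and 24.9 CPM in LIS1+/-, at -0.33 ± 0.24 log2 (edgeR adjusted p = 0.675). Those groups overlapped in 1 library. RAB11FIP3, an adaptor of recycling endosomes, had 27.1, 39.6 and 50.6 CPM in LIS1+/+ and 56.9, 56.6 and 41.0 CPM in LIS1+/- at Day 12. The groups overlapped, at 0.38 ± 0.22 log2 (edgeR adjusted p = 0.487). Groups that did not overlap were found for 7, 4 and 5 of the 31 genes in hESC, at Day 5 and at Day 12, beside 18.3%, 17.5% and 16.9% of all genes tested.

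The genotype effect was also compared between stages, which asks at the same time whether a developmental step differed between genotypes. No gene of the 31 was called for Day 5 against hESC, where 0.573% of all genes were, for Day 12 against Day 5, where 1.06% were, or for Day 12 against hESC, where 0.377% were. At an unadjusted p under 0.05 in edgeR there were 2, 8 and 0 of the 31, beside 12.0%, 12.5% and 8.11% of all genes, and DESeq2 called none. Besides DYNC1LI2, the differences from Day 5 to Day 12 with the smallest p were -1.08 ± 0.39 log2 for DCTN4 (edgeR adjusted p = 0.24) and 1.03 ± 0.42 log2 for SPDL1, the kinetochore adaptor Spindly (edgeR adjusted p = 0.307). DCTN1 differed by 0.83 ± 0.38 log2 (edgeR adjusted p = 0.376). It was called when all genes with at least 1 count were tested together (edgeR adjusted p = 0.0247), and without the 3 libraries in which GC-rich genes were low the difference was 0.28 ± 0.20.

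The second question was how the machinery changed along the path from stem cell to organoid. From hESC to Day 5 in LIS1+/+, 10 of the 31 genes passed the test, 7 upward and 3 downward, where 44.6% of all genes passed. In LIS1+/- 13 passed, 7 upward and 6 downward, beside 43.7% of all genes. From Day 5 to Day 12, 11 passed in LIS1+/+ (7 upward, 4 downward; all genes 24.5%) and 5 in LIS1+/- (3 upward, 2 downward; all genes 16.5%). The shares of the genes that passed, 32.3% and 41.9% in the first step and 35.5% and 16.1% in the second, were below or near those of all genes except in the LIS1+/+ step to Day 12. The tags of all 32 genes summed to 3162 to 3592 CPM in hESC, 2932 to 3192 CPM at Day 5 and 2899 to 3306 CPM at Day 12, ranges that overlap from stage to stage. The dynein subunits among them summed to 1213 to 1441 CPM in hESC and 875 to 1047 CPM in organoids, and the adaptors to 213 to 266 CPM and 278 to 395 CPM. The lower dynein sum lay mostly in DYNLL1 and DYNC1LI1. From hESC to Day 5 in LIS1+/+ their means went from 628 to 349 CPM and from 187.5 to 86.4 CPM. The heavy chain DYNC1H1 had means of 257 and 260 CPM there. In the first step 8 genes passed in both genotypes and each moved the same way in both (8 of the 10 in LIS1+/+ and of the 13 in LIS1+/-). Over all genes 31.8% did so. In the second step 3 did (of 11 and of 5), beside 9.62% of all genes, and the tests of the difference between genotypes given above called no step of the 31 genes.

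**Figure D2:**
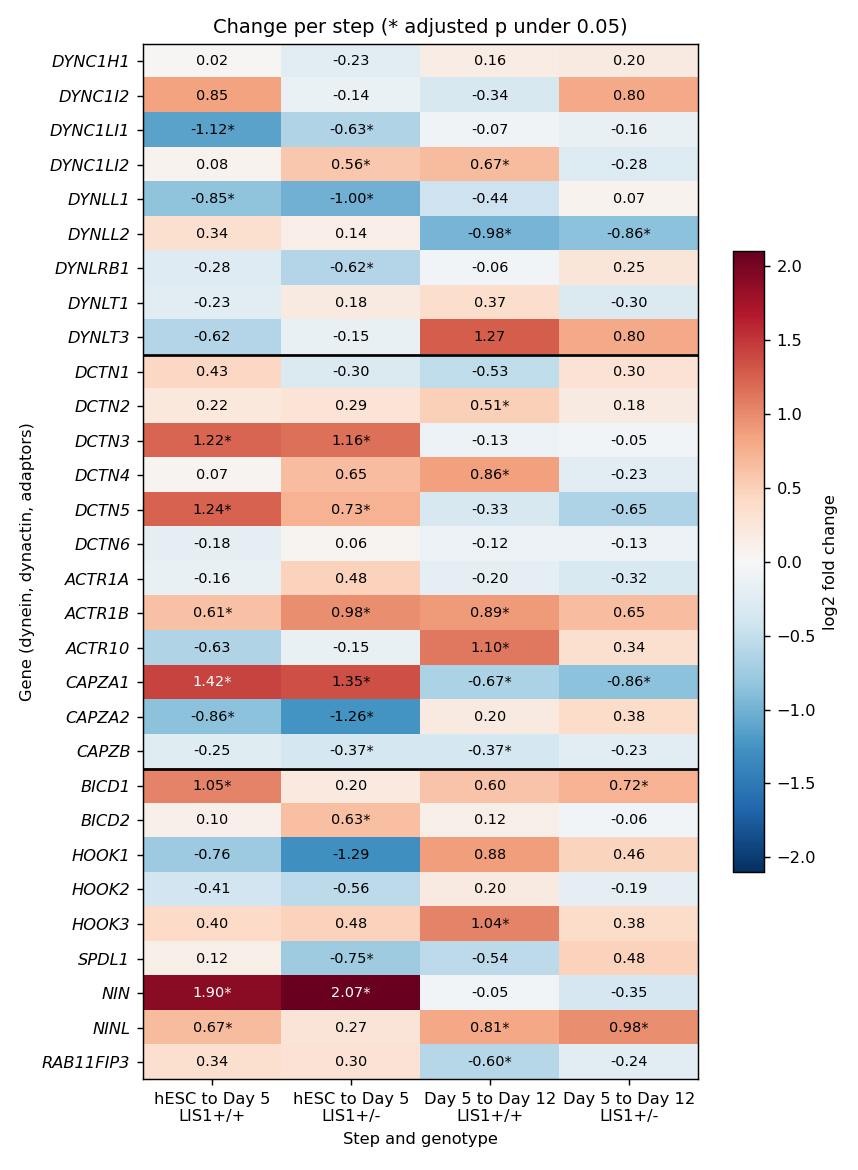
Log2 fold change of each tested gene (y axis; dynein, dynactin and adaptors from top to bottom, separated by lines; DYNLRB2 left out) over the 2 developmental steps in each genotype (x axis). Red is a rise and blue a fall, and stars mark an adjusted p under 0.05. NIN at 1.90 and 2.07 is the strongest color, and the heavy chain DYNC1H1 stays pale in all 4 columns.

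Among the dynein subunits, DYNC1LI1 and DYNLL1 fell from hESC to Day 5. DYNC1LI1 went from 169.5, 168 and 225 CPM in LIS1+/+ hESC to 101, 76.2 and 82.3 CPM at Day 5, and no library of one stage reached those of the other. The log2 fold change was -1.12 ± 0.19 (edgeR adjusted p = 2.15e-05), and -0.63 ± 0.19 in LIS1+/- (edgeR adjusted p = 0.00798). At Day 12 the level was 91.8, 76.8 and 77.9 CPM in LIS1+/+, inside the range of Day 5. In LIS1+/- it was 78.5, 102 and 86.6 CPM at Day 5 and 97.1, 59.5 and 84.9 CPM at Day 12. DYNLL1, which has processed pseudogenes whose reads may be shared with it, went from 624, 568 and 692 CPM in LIS1+/+ hESC to 374, 342 and 332 CPM at Day 5. Its log2 fold change was -0.85 ± 0.16 in LIS1+/+ and -1.0 ± 0.16 in LIS1+/- (edgeR adjusted p = 0.000136 and 1.68e-05). In LIS1+/- DYNLRB1, the roadblock light chain, also fell by 0.62 ± 0.20 log2 (edgeR adjusted p = 0.0118), a call lost without Day 5 LIS1+/- replicate 2, at -0.50, and DYNC1LI2 rose by 0.56 ± 0.21 (edgeR adjusted p = 0.0365). The DYNC1LI2 call was lost with no filter, with only the libraries compared, without hESC LIS1+/- replicate 1, or Day 5 LIS1+/- replicates 1 or 2, at 0.34 to 0.59, and without the 3 libraries in which GC-rich genes were low. In LIS1+/+ these steps were -0.28 and 0.08 and did not pass, but DYNLRB1 was at -0.53 and passed without hESC LIS1+/+ replicate 3 (edgeR adjusted p = 0.0193).

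DYNLL2 and DYNC1LI2 moved in the second step. DYNLL2 went from 16.4, 25.0 and 18.9 CPM at Day 5 to 11, 8.81 and 10.7 CPM at Day 12 in LIS1+/+. In LIS1+/- it went from 20.2, 21.9 and 28.1 CPM to 9.28, 11.4 and 17.1 CPM. The stages did not overlap in either genotype, and the log2 fold changes were -0.98 ± 0.31 and -0.86 ± 0.29 (edgeR adjusted p = 0.0234 and 0.0423). DYNC1LI2 rose in LIS1+/+ by 0.67 ± 0.21 log2 (edgeR adjusted p = 0.0221), with Day 12 values of 49.6 to 64.0 CPM above the Day 5 values of 34.2 to 38.3 CPM. In LIS1+/- it stood at -0.28 and did not pass. The call of DYNLL2 was lost in 3 of 13 settings in LIS1+/+ and 7 of 13 in LIS1+/-, there also with DESeq2, only the libraries compared or the GC trend removed. It was lost in LIS1+/+ without the 3 libraries in which GC-rich genes were low and without Day 5 LIS1+/+ replicate 2, or Day 12 LIS1+/+ replicate 2, at -0.90 to -0.79, and in LIS1+/- without Day 5 LIS1+/- replicates 2 or 3, or Day 12 LIS1+/- replicates 1 or 2, at -0.91 to -0.71. The call of DYNC1LI2 was lost in LIS1+/+ without Day 5 LIS1+/+ replicates 1 or 2, or Day 12 LIS1+/+ replicates 1 or 2, at 0.58 to 0.66.

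The largest relative rise of a dynein subunit was in DYNLRB2, the roadblock light chain gene that is known from cells with motile cilia. It had no count in any of the 6 hESC libraries. Its libraries of a group pooled to 6 counts in LIS1+/+ and 5 in LIS1+/- at Day 5, and to 14 and 35 counts at Day 12. From Day 5 to Day 12 the ratio of pooled levels was 5.85 in LIS1+/+ (95% counting interval 2.11 to 18.6) and 7.15 in LIS1+/- (2.79 to 23.4), intervals that cover counting error only. Against a floor of 3 counts over the hESC group, Day 12 was 4.68-fold higher in LIS1+/+ and 8.88-fold higher in LIS1+/-. The lower 95% counting limits of the ratios to hESC were 3.33 and 6.85. The edgeR test passed for this step in LIS1+/- (adjusted p = 0.0296) and not in LIS1+/+ (adjusted p = 0.0569). The call in LIS1+/- was lost with DESeq2, and in edgeR without Day 5 LIS1+/- replicates 1, 2 or 3, or Day 12 LIS1+/- replicates 1 or 2, at 2.56 to 3.00 log2. Beside it, 6 markers of motile cilia such as FOXJ1 summed to 4.35 to 11.4 CPM in hESC and 11.3 to 18.7 CPM at Day 5. At Day 12 they summed to 53.5 to 77.4 CPM in LIS1+/+ and 76.0 to 139.7 CPM in LIS1+/-, with DNAI1 and CCDC39 at 0 in the LIS1+/+ libraries, and their part in the DYNLRB2 result was not tested. FOXJ1 held most of the Day 12 sums, with means of 50.5 CPM in LIS1+/+ and 88.1 CPM in LIS1+/-. Of the 6 markers only FOXJ1 and RSPH1 passed the filter on low counts.

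Of the dynactin genes, CAPZA1, DCTN3, DCTN5 and ACTR1B rose and CAPZA2 fell in the first step in both genotypes. CAPZA1, a CapZ alpha subunit that caps the dynactin filament and also ordinary actin, went from 21.4, 31.4 and 24.8 CPM in LIS1+/+ hESC to 87.1, 46.9 and 72.6 CPM at Day 5. The log2 fold change was 1.42 ± 0.24 in LIS1+/+ and 1.35 ± 0.24 in LIS1+/- (edgeR adjusted p = 3.19e-05 and 5.29e-05). CAPZA2, the other alpha subunit, went the other way, from 13.3, 20.7 and 16.1 CPM to 10.8, 7.66 and 8.79 CPM in LIS1+/+. Its log2 fold change was -0.86 ± 0.33 in LIS1+/+ and -1.26 ± 0.34 in LIS1+/- (edgeR adjusted p = 0.035 and 0.00382). DCTN3, the p24 subunit of the shoulder that holds p150 to the filament, rose from 20, 30.1 and 15.5 CPM to 56.7, 48.5 and 46.5 CPM in LIS1+/+. That is 1.22 ± 0.23 log2, and 1.16 ± 0.23 in LIS1+/- (edgeR adjusted p = 0.000107 and 0.000179).

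DCTN5 rose from 13.3, 8.02 and 10.6 CPM in LIS1+/+ hESC to 19.5, 31.1 and 26.2 CPM at Day 5, by 1.24 ± 0.29 log2 (edgeR adjusted p = 0.00101). In LIS1+/- its rise was 0.73 ± 0.27 log2 (edgeR adjusted p = 0.0312), and the call was lost there without hESC LIS1+/- replicates 2 or 3, or Day 5 LIS1+/- replicates 1 or 3, at 0.59 to 0.71. CAPZB, the beta subunit of CapZ, fell by 0.37 ± 0.13 log2 in LIS1+/- (edgeR adjusted p = 0.0258) and stood at -0.25 in LIS1+/+, where it did not pass. Its LIS1+/- call was lost with no filter, with only the libraries compared and without hESC LIS1+/- replicate 1, or Day 5 LIS1+/- replicates 1 or 3, at -0.38 to -0.31. The CAPZA2 call in LIS1+/+ was lost with no filter and without hESC LIS1+/+ replicates 2 or 3, or Day 5 LIS1+/+ replicates 2 or 3, at -0.88 to -0.69. CAPZA1, like DYNLL1, has processed pseudogenes that may share its reads.

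**Figure D3:**
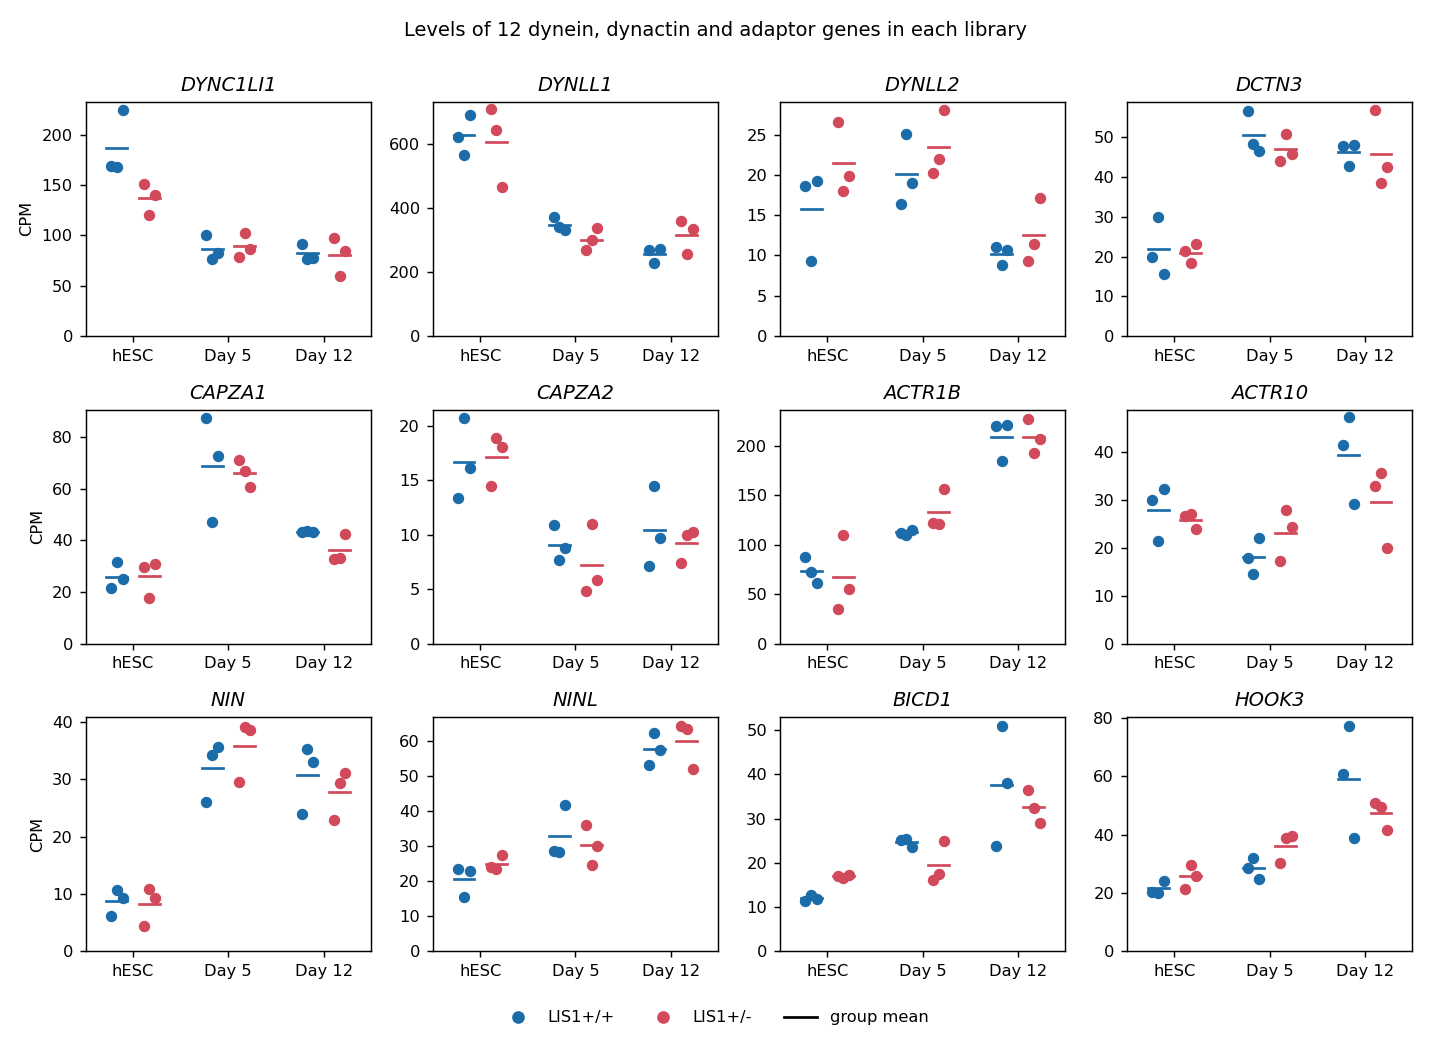
CPM of 12 genes in each library (y axis, linear from 0) by stage (x axis) and genotype (blue, LIS1+/+; red, LIS1+/-; points are libraries and bars group means of 3 libraries). DYNC1LI1 and DYNLL1 fall after the hESC stage, NIN and DCTN3 are higher from Day 5 on, and NINL and ACTR1B rise at each step in LIS1+/+.

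From Day 5 to Day 12 the dynactin genes that rose in LIS1+/+ were ACTR10, ACTR1B, DCTN4 and DCTN2, and CAPZA1 and CAPZB fell. ACTR10, the Arp11 subunit at the pointed end, went from 17.9, 14.4 and 22.1 CPM to 41.4, 47.2 and 29.2 CPM. The stages did not overlap, and the log2 fold change was 1.10 ± 0.27 in LIS1+/+ (edgeR adjusted p = 0.00331) and 0.34 in LIS1+/-, where it did not pass. ACTR1B, the beta-centractin of the filament, went from 87.1, 72.1 and 60.8 CPM in hESC to 112, 110.2 and 115 CPM at Day 5 and 220.3, 184 and 221 CPM at Day 12 in LIS1+/+. It rose at each step, by 0.61 ± 0.25 and then 0.89 ± 0.24 log2 (edgeR adjusted p = 0.0461 and 0.00754). In LIS1+/- the first step was 0.98 ± 0.25 and passed, and the second 0.65 ± 0.24 and did not (edgeR adjusted p = 0.00222 and 0.0619). The first-step call of ACTR1B in LIS1+/+ was lost in 10 of 13 alternative settings, among them those without hESC LIS1+/+ replicates 2 or 3, or Day 5 LIS1+/+ replicates 1, 2 or 3, at 0.49 to 0.62. Its other calls held in each fit that left out 1 library.

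DCTN4 rose in LIS1+/+ from 28.5, 25.9 and 25.0 CPM at Day 5 to 34.9, 64.2 and 44.8 CPM at Day 12, by 0.86 ± 0.28 log2 (edgeR adjusted p = 0.0246). Its call was lost without Day 5 LIS1+/+ replicates 1, 2 or 3, or Day 12 LIS1+/+ replicate 2, at 0.59 to 0.90, and without the 3 libraries in which GC-rich genes were low. DCTN2, the p50 dynamitin subunit of the shoulder, rose by 0.51 ± 0.14 log2 (edgeR adjusted p = 0.00967), a call lost without Day 5 LIS1+/+ replicate 2, at 0.44. CAPZA1 turned back toward its hESC level, to 43.3, 43.4 and 43.3 CPM in LIS1+/+ and 32.8, 33.0 and 42.5 CPM in LIS1+/- at Day 12. Its log2 fold change was -0.67 ± 0.23 in LIS1+/+ and -0.86 ± 0.23 in LIS1+/- (edgeR adjusted p = 0.035 and 0.00971). The call was lost in 8 of 13 settings in LIS1+/+, among them DESeq2, only the libraries compared and those without Day 5 LIS1+/+ replicates 1 or 3, or Day 12 LIS1+/+ replicates 1, 2 or 3, at -0.67 to -0.47, and in LIS1+/- without Day 12 LIS1+/- replicate 2, at -0.80. CAPZB also fell by 0.37 ± 0.13 log2 in LIS1+/+ (edgeR adjusted p = 0.0417), a call lost in 9 of 13 settings, among them the size factors of DESeq2, no filter, only the libraries compared, the GC trend removed and those without Day 5 LIS1+/+ replicates 1, 2 or 3, or Day 12 LIS1+/+ replicates 2 or 3, at -0.41 to -0.30. The summed mesenchyme and endoderm markers also rose from Day 5 to Day 12 in LIS1+/+. They were highest in Day 12 replicate 1 (948 and 456 CPM) and lowest in replicate 2 (147 and 20.8 CPM). Their part in these steps was not tested.

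The adaptor that moved furthest was NIN, ninein, a protein of the mother centriole that anchors microtubules. It went from 6.19, 10.7 and 9.31 CPM in LIS1+/+ hESC to 26.1, 34.2 and 35.6 CPM at Day 5 and 23.9, 35.2 and 33.1 CPM at Day 12. In LIS1+/- it went from 4.42, 10.8 and 9.38 CPM to 29.5, 39.1 and 38.6 CPM and 22.9, 29.3 and 31.1 CPM. The hESC libraries lay below all organoid libraries of both genotypes, and the first step was 1.90 ± 0.30 log2 in LIS1+/+ and 2.07 ± 0.29 in LIS1+/- (edgeR adjusted p = 1.01e-05 and 1.77e-06). NINL, the ninein-like protein of the centrosome, went from 23.3, 15.4 and 23.0 CPM to 28.5, 28.4 and 41.7 CPM and 53.0, 62.3 and 57.4 CPM in LIS1+/+. Its rise was 0.67 ± 0.23 log2 in the first step and 0.81 ± 0.21 in the second (edgeR adjusted p = 0.022 and 0.00707). In LIS1+/- NINL rose in the second step, by 0.98 ± 0.22 log2 (edgeR adjusted p = 0.00208), and stood at 0.27 in the first, which did not pass. The first-step call in LIS1+/+ was lost without hESC LIS1+/+ replicate 2, or Day 5 LIS1+/+ replicate 3, at 0.46 to 0.51.

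BICD1 rose in the first step in LIS1+/+, from the hESC values given above to 25.1, 25.5 and 23.7 CPM, by 1.05 ± 0.27 log2 (edgeR adjusted p = 0.00285). In LIS1+/- that step was 0.20 and did not pass, and BICD1 rose in the second step, from 16.1, 17.6 and 24.9 CPM to 36.5, 32.4 and 29.1 CPM, by 0.72 ± 0.25 log2 (edgeR adjusted p = 0.0443). The second step in LIS1+/+ was 0.605 and missed the threshold (edgeR adjusted p = 0.0704). It passed without Day 12 LIS1+/+ replicate 1, at 0.833 (edgeR adjusted p = 0.0162). The difference of the first step between the genotypes was -0.84 ± 0.38 log2 and missed the threshold (edgeR adjusted p = 0.373). The second-step call in LIS1+/- was lost in 8 of 13 settings, among them no filter, only the libraries compared, those without the 3 libraries in which GC-rich genes were low, and those without Day 5 LIS1+/- replicates 1 or 2, or Day 12 LIS1+/- replicates 1, 2 or 3, at 0.60 to 0.80. BICD2, its paralog, rose in LIS1+/- by 0.63 ± 0.19 log2 in the first step (edgeR adjusted p = 0.00967) and stood at 0.10 in LIS1+/+.

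HOOK3, an adaptor of endosomes and of the centrosome, rose from 28.7, 32 and 24.8 CPM at Day 5 to 60.7, 77.4 and 38.9 CPM at Day 12 in LIS1+/+. The stages did not overlap and the log2 fold change was 1.04 ± 0.23 (edgeR adjusted p = 0.00147), beside 0.38 in LIS1+/-, which did not pass. RAB11FIP3 fell in LIS1+/+ from 56.2, 63.8 and 60.0 CPM to 27.1, 39.6 and 50.6 CPM, a log2 fold change of -0.60 ± 0.22 (edgeR adjusted p = 0.0415). This call was lost in 9 of 13 settings: with DESeq2, its size factors, only the libraries compared or the GC trend removed, and without Day 5 LIS1+/+ replicates 1, 2 or 3, or Day 12 LIS1+/+ replicates 1 or 2, at -0.65 to -0.41. In the first step in LIS1+/- SPDL1 fell by 0.75 ± 0.29 log2 (edgeR adjusted p = 0.0369), with groups that overlapped, and stood at 0.12 in LIS1+/+. Its call was lost in 7 of 13 settings, among them no filter, only the libraries compared and those without hESC LIS1+/- replicates 1 or 3, or Day 5 LIS1+/- replicates 1 or 3, at -0.80 to -0.52. Beside it, 8 mitosis markers summed to 737 to 753 CPM in LIS1+/- hESC and 666 to 757 CPM at Day 5, and their part in the SPDL1 result was not tested.

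In all, 22 of the 31 genes passed in at least 1 of the 4 steps, beside 67.1% of all genes tested. The 9 that passed in none were the heavy chain DYNC1H1, the intermediate chain DYNC1I2, the light chains DYNLT1 and DYNLT3, the dynactin subunits DCTN1, DCTN6 and ACTR1A, and the adaptors HOOK1 and HOOK2. Of these, HOOK1, DCTN1, ACTR1A and HOOK2 passed in some alternative settings. HOOK1, at -1.29 ± 0.53 log2 from hESC to Day 5 in LIS1+/- (edgeR adjusted p = 0.051), passed in 4: with the size factors of DESeq2, without the filter on low counts, with the GC trend removed and without hESC LIS1+/- replicate 1, where it was -1.68. DCTN1 passed in LIS1+/+ without the filter at both steps (0.46 and -0.56), in the first also with only the libraries compared (0.44) and in the second without Day 12 LIS1+/+ replicate 3 (-0.87, against -0.53 with it). In the first step in LIS1+/-, ACTR1A passed without the filter (0.49) and HOOK2 without Day 5 LIS1+/- replicate 1 (-0.76). DYNC1H1, the one motor subunit with no paralog here, had 199 to 373 CPM over all 18 libraries, and its steps ran from -0.23 to 0.20 log2. DYNC1I2, the intermediate chain found in most tissues, was listed with only 1 to 19 counts per library, too few to follow. DYNLT3 and HOOK1 were also low, at 0.724 to 7.12 CPM and 2.43 to 12.3 CPM.

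The balance within pairs of related genes was also followed. A 3′ tag count is not divided by transcript length, so the share of one gene among the tags of both depends on how well each 3′ end is caught, and only its change between groups is described here, with no test of its own. DYNC1LI1 made up 84.5% ± 2.44 (SD, n = 3) of the tags of both light intermediate chains in LIS1+/+ hESC, 70.4% ± 3.62 at Day 5 and 58.9% ± 2.16 at Day 12. In LIS1+/- the shares were 78.6% ± 6.70, 61.5% ± 2.56 and 63.0% ± 5.81. The LIS1+/+ libraries of successive stages did not overlap, each stage being lower, while in LIS1+/- the Day 5 and Day 12 libraries overlapped. ACTR1A, alpha-centractin, made up 71.5% ± 2.33, 59.7% ± 3.88 and 39.6% ± 10 of the tags of both centractins in LIS1+/+, and 65.2% ± 25.2, 59.2% ± 6.14 and 41.6% ± 11.5 in LIS1+/-. At Day 12 ACTR1B had more tags than ACTR1A in 4 of the 6 libraries.

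CAPZA1 held 60.8% ± 0.722 of the tags of the CapZ alpha subunits in LIS1+/+ hESC, 88.0% ± 1.80 at Day 5 and 80.8% ± 5.49 at Day 12. The LIS1+/- shares were 59.4% ± 9.98, 90.2% ± 3.93 and 79.6% ± 2.49, the same course. NIN took 30.3% ± 10.1, 49.5% ± 4.56 and 34.6% ± 3.04 of the tags of NIN and NINL in LIS1+/+, highest at Day 5. BICD1 took 15.4% ± 2.38, 25.8% ± 3.10 and 32% ± 3.89 of the tags of both BICD genes in LIS1+/+, and 23.8% ± 1.48, 18.6% ± 4.03 and 28.5% ± 1.05 in LIS1+/-. DYNLL1 stayed at 92.3% to 98.4% of the tags of both LC8 genes in every library.

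**Figure D4:**
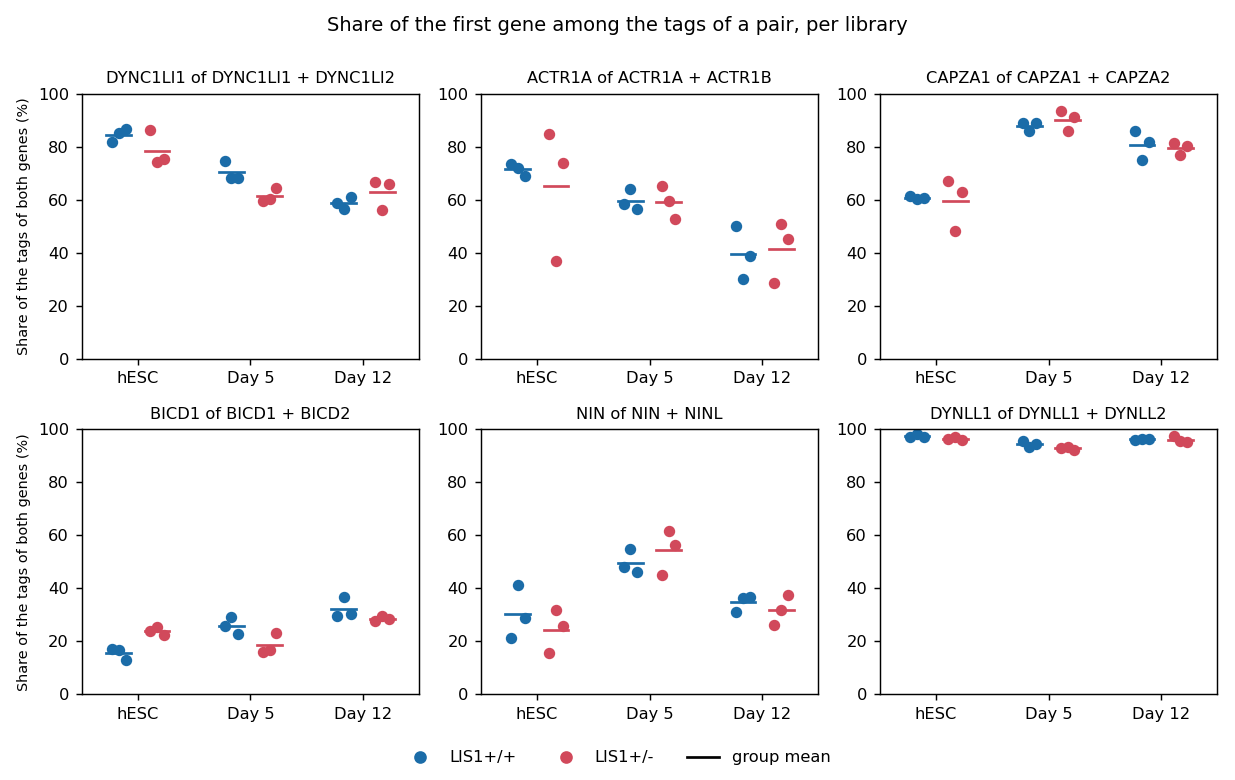
Share of the first gene in the tags of 6 gene pairs (y axis, percent from 0) by stage (x axis) and genotype (blue, LIS1+/+; red, LIS1+/-; points are libraries and bars means of 3 libraries). The DYNC1LI1 share moves from 84.5% to 58.9% and the ACTR1A share from 71.5% to 39.6% in LIS1+/+, while the CAPZA1 share rises from 60.8% to 88.0% at Day 5.

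Libraries of one group agreed to different degrees from gene to gene. The SD of log2 levels within groups was 0.56 for ACTR1A, 0.40 for DCTN1 and 0.10 for CAPZB. The genes with a higher SD than ACTR1A, HOOK1, DYNC1I2 and DYNLT3 at 0.70, 0.64 and 0.62, all had low counts. ACTR1A had 196, 64.0 and 158 CPM in LIS1+/- hESC, where replicate 2 was low and was also the library with the highest ACTR1B of that group, at 35.4, 110.0 and 55.2 CPM. DCTN1 had 515, 474 and 334 CPM in LIS1+/+ hESC, 499, 292 and 608 CPM in LIS1+/- at Day 5 and 437, 215 and 582 CPM in LIS1+/+ at Day 12. The lowest value of DCTN1 at each stage was in the 3 libraries in which GC-rich genes were low, and the last 500 bases of its transcripts held 59.0% GC against a median of 42.6% over the genes tested. Without those libraries its genotype effects were 0.22 ± 0.14, -0.10 ± 0.14 and 0.18 ± 0.14 log2 in hESC, at Day 5 and at Day 12, against 0.38, -0.35 and 0.48 with them. The antisense gene DCTN1-AS1 had 1 count in all libraries together.

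**Figure D5:**
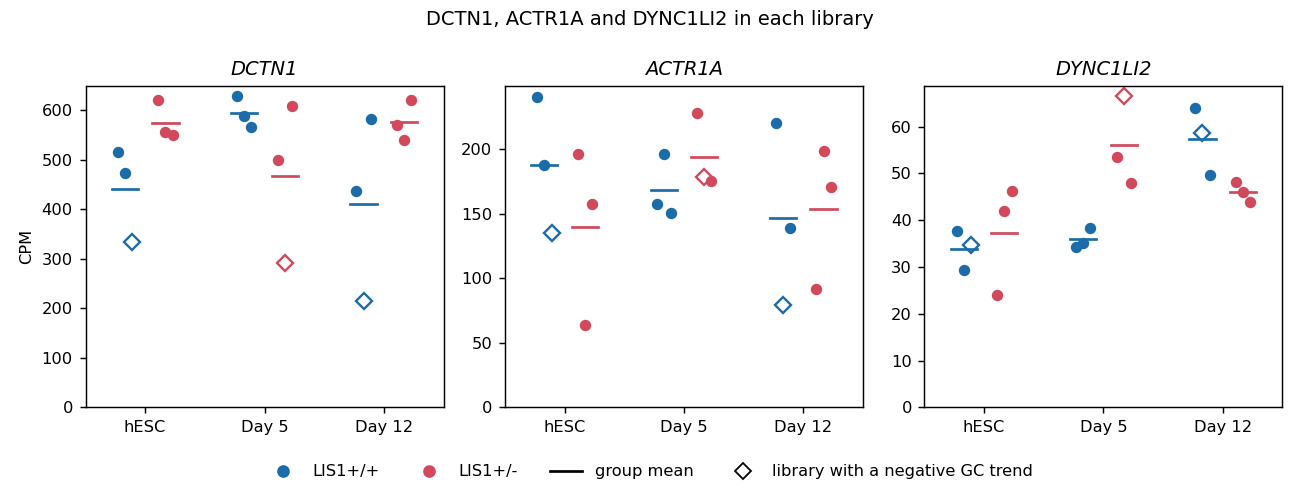
CPM of DCTN1, ACTR1A and DYNC1LI2 in each library (y axis, linear from 0) by stage (x axis) and genotype (blue, LIS1+/+; red, LIS1+/-; bars are group means of 3 libraries). Open diamonds mark the 3 libraries in which GC-rich genes were low; they hold the lowest DCTN1 value of each stage, at 334, 292 and 215 CPM.

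Other genes of the pathway give the setting. NDE1 and NDEL1, which bring LIS1 to dynein, were not called in any comparison. NDEL1 had 45.2, 47.2 and 40.9 CPM in LIS1+/+ and 23.5, 32.7 and 32.5 CPM in LIS1+/- at Day 12, with no overlap, at -0.56 ± 0.24 log2 (edgeR adjusted p = 0.301). Its genotype effect was -0.02 in hESC and 0.15 at Day 5, and -0.15 ± 0.13 in the mean (edgeR adjusted p = 0.677). NDE1, which had few counts, had a mean effect of -0.37 ± 0.34 (edgeR adjusted p = 0.677). PAFAH1B1 itself rose from hESC to Day 5, by 0.63 ± 0.20 log2 in LIS1+/+ and 0.72 ± 0.20 in LIS1+/- (edgeR adjusted p = 0.0101 and 0.00495). Of 15 further dynein adaptors 12 were tested, and 3 rose and 3 fell in LIS1+/+ from hESC to Day 5, with none called by edgeR from Day 5 to Day 12 (1 at an unadjusted p under 0.05). NUMA1, which holds dynein at the cell cortex in mitosis, rose by 1.56 ± 0.21 log2 and SPAG9, the kinesin and dynein adaptor JIP4, by 1.99 ± 0.36 (edgeR adjusted p = 1.26e-06 and 6.79e-05). CCDC64B, a BICD-related gene, fell from 3.33, 4.68 and 2.48 CPM in LIS1+/+ hESC to 0.482, 0 and 0 CPM at Day 5 (edgeR adjusted p = 0.000843).

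Of 17 cargo-side partners of the adaptors, all tested, 5 rose and 3 fell in LIS1+/+ in the first step and 5 rose in the second. CENPF, which binds dynein regulators at kinetochores and nuclear pores, rose by 1.14 ± 0.16 log2 and SUN2, a nuclear envelope anchor, by 2.04 ± 0.29 (edgeR adjusted p = 2.14e-06 and 2.23e-06). ZWILCH, of the kinetochore complex that recruits Spindly, fell by 1.48 ± 0.29 (edgeR adjusted p = 0.000171). In the second step RAB6B, a neuronal partner of BICD proteins, rose by 1.64 ± 0.36 log2 (edgeR adjusted p = 0.0014). SUN1 rose by 0.59 ± 0.18 and RAB11A, the partner of RAB11FIP3, by 1.01 ± 0.32 (edgeR adjusted p = 0.0174 and 0.0201). Dynein-2, the separate motor that returns cargo from the tips of cilia, had 3 of 5 genes called upward in the first step and 2 in the second in LIS1+/+. In the first step WDR34 rose by 1.15 ± 0.20 log2, TCTEX1D2 by 1.08 ± 0.23 and DYNC2H1, the dynein-2 heavy chain, by 2.23 ± 0.65 (edgeR adjusted p = 4.28e-05, 0.000498 and 0.0067). In the second step WDR60 rose by 0.76 ± 0.23 and TCTEX1D2 by 0.67 ± 0.22 (edgeR adjusted p = 0.0162 and 0.0244).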

How the data were processed

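The authors deposited 1 table of whole-number read counts by gene symbol for each library. The tools named, per the submitters' processing notes, are cutadapt, STAR and DESeq2; GRCh37 and hg38 are both listed, with no role. Collapsing of molecular identifiers and the use of strand are not given in the sources used here. Rows that name no gene were left out of the library sizes.

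Counts were filtered with filterByExpr on the 6 groups, scaled with TMM and tested with the two-sided quasi-likelihood F-test of edgeR 4.0.16 (R 4.3.3) in 1 fit of 18 libraries with 12 residual degrees of freedom. P-values were Benjamini-Hochberg adjusted over all tested genes for each of 11 comparisons, and the pipeline was tested on simulated data. Alternatives were DESeq2 1.42.0 or its size factors, no filter, fitting only the groups of a comparison, blocking on replicate number and omitting each library in turn. So was leaving out together the 3 libraries in which GC-rich genes were low. Removing the GC trend (GC of the last 500 bases of GENCODE transcripts) was added after seeing the data. Members, lists and those 3 libraries were chosen with earlier results of these data known.

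Values in each library are given for PAFAH1B1, for the 3 genes with the smallest p in each genotype comparison and the mean effect, and, per role and LIS1+/+ step, for up to 3 called genes with the largest change. CAPZA2, ACTR1A, DCTN1 at other stages, CAPZB and DYNLRB2 were singled out after their values were seen. Promoter windows come from RefSeq (GRCh38.p14). Figures were drawn with Matplotlib 3.10.9.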

Additional observations from a re-analysis of the deposited data

Results flagged for a closer look

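DYNC1LI2, a light intermediate chain of dynein, stood out because its genotype effects at Day 5 and Day 12 pointed in opposite directions with no overlap between genotypes at either stage. It was higher in 3 of 3 LIS1+/- libraries at Day 5 (log2 fold change 0.64) and lower in 3 of 3 at Day 12 (-0.32). The difference was tested: Day 12 minus Day 5 was -0.95 ± 0.30 (SE), with an unadjusted p of 0.00366 and an adjusted p of 0.155 in edgeR, so it missed the threshold over all genes. It was -0.79 in 2 further settings, without the 3 libraries in which GC-rich genes were low and with the GC trend removed (edgeR adjusted p = 0.328 and 0.203). No cause was tested.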

How the results depend on the processing

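No called step of the 31 genes, and no genotype effect of PAFAH1B1, turned its direction under any alternative that gave a value. The other values named above were not all followed through the alternatives. The counts of the 31 genes called kept within 1.5 times the reported ones, except as follows. From Day 5 to Day 12 in LIS1+/-, 5 became 3 with DESeq2 and 3 in a fit of only the libraries compared. For Day 12 minus Day 5 of the genotype effect, 0 became 1 without the filter on low counts. With 1 library left out in turn, the counts were 8 to 10 (reported 10) from hESC to Day 5 in LIS1+/+ and 10 to 12 (reported 13) in LIS1+/-. From Day 5 to Day 12 they were 5 to 10 in LIS1+/+ (reported 11) and 1 to 4 in LIS1+/- (reported 5). In LIS1+/+ the count was 6 without Day 5 replicate 1, 5 without Day 5 replicate 2 and 5 without Day 12 replicate 2. In LIS1+/- it was 3 without any 1 of the Day 5 libraries, 2 without Day 12 replicate 1 and 1 without Day 12 replicate 2. The cause was not tested. The genotype counts stayed at 0 in each of these fits. With the replicate block the counts were 9, 12, 11 and 5 in the 4 steps and 0 in each genotype comparison. The first-step calls of ACTR1B in LIS1+/+ and SPDL1 in LIS1+/- were then not made. Same-numbered libraries of the genotypes correlated at 0.0166 to 0.101 in hESC, -0.126 to -0.0134 at Day 5 and 0.04 to 0.084 at Day 12. Differently numbered ones correlated at -0.0738 to 0.0431, -0.0729 to 0.132 and -0.0621 to 0.0124. Correlations this weak cannot show whether the numbers pair the libraries. For genotype over all genes, calls ran from 55 to 206 in hESC, 163 to 412 at Day 5, 41 to 483 at Day 12 and 249 to 536 in the mean effect over the settings that keep all replicates or leave out the 3 libraries together. Depth limits the genes with few counts: DYNC1I1, DYNC1I2, DYNLRB2 and DYNLT3.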
